A study of Mus musculus with 48 samples.

Results

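The receptors and ligands of platelet-derived growth factor (PDGF) described here are 5 genes of the 49671 in the count table: the receptor genes Pdgfra and Pdgfrb and the ligand genes Pdgfa, Pdgfb and Pdgfc. They were chosen by name and followed in 48 single cells of the inner cell mass (ICM) of the mouse blastocyst at E3.75. Their RNA was read by Smart-seq2, which copies whole transcripts and has no molecular identifiers, so a count is a read and not a molecule. By the study's methods, the cells came from 3 embryos of the Pdgfra H2B-GFP/+ genotype, from a cross of reporter mice with C57BL/6J x CBA/J F1 mice. In this genotype the Pdgfra locus of a single allele carries a nuclear GFP cassette. The sample titles give the cells as WT (wild type), and this difference is not resolved in the sources used here. According to the methods the embryos were picked for a salt-and-pepper reporter pattern and the trophectoderm was removed by immunosurgery, so the choice of embryos rested on the promoter of a gene described here. How transcripts of the reporter allele were counted is not given in the sources used here.

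The cells were divided into the putative epiblast (pEPI, 25 cells) and putative primitive endoderm (pPrE, 23 cells) branches of the study's tree, read by eye from its picture. Because that tree rests on expression in the cells themselves, differences between the branches are given as descriptions and none was tested. No label names the embryo of a cell. The 48 cells are therefore 1 sample, SDs describe the spread between cells, and the 95% intervals of ratios and summed counts cover counting error only. Cells had 1718970 to 7342785 counts, with a median of 4017082. Counts of 4 Y-linked genes divided the cells into 29 with at least 100 such counts and 19 with 0 or 1, in 4 runs of neighbouring wells (A1 to C2, C3 to D8, E1 to F3 and F4 to F8). Values are given within these kinds of cell where they differ. Marker lists describe the branches but cannot check them, since the tree rests on expression in the same cells. Of 12 pPrE markers, 10 were at least 2-fold higher in the pPrE cells and 1, Hnf4a, was at least 2-fold higher in the pEPI cells. Of 10 pEPI markers, 6 were at least 2-fold higher in the pEPI cells. The summed level of 9 trophectoderm markers ranged from 16.5 to 201 FPKM (counts scaled by exon length and library size) in pEPI cells and from 22.2 to 130 FPKM in pPrE cells, and their part in the results was not tested. Of these markers Cdx2 had counts in 3 cells, Elf5 in 5, Gata3 in 9, Dppa1 in 10, Krt18 in 13, Id2 in 20, Eomes in 22, Krt8 in 46 and Tead4 in 47.

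PDGF ligands are secreted dimers that bind receptor tyrosine kinases on the surface of the same or neighbouring cells. PDGFRA binds dimers of the A, B and C chains, while PDGFRB binds mainly the B and D chains. A bound receptor dimerizes, phosphorylates itself and recruits adaptors that lead to the MAP kinase and PI3 kinase pathways. In the mouse blastocyst Pdgfra is a classical marker of the primitive endoderm, and the receptor is known for its part in the survival of these cells.

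The sequences upstream of RefSeq start sites of the receptor and of 2 ligands are shown. Most cells had counts of Pdgfra and Pdgfa while 3 had counts of Pdgfc. The windows also differ in CpG content, but those of Pdgfra and Pdgfc were close, with 4 and 3 CpGs. A relation between CpG content and counts was not tested. They are from RefSeq (GRCm38), on the strand of the gene and read 5′ to 3′, with each CpG in capitals. Pdgfra lies on the plus strand of chromosome 5 and Pdgfa on the minus strand of the same chromosome. The Pdgfra window is chr5:75152001-75152250. The Pdgfa stretch is chr5:138995038-138995194, the 157 bases of a 250-base window that lie outside the gene's annotated exons. The annotated gene extends to 138997370, its 5′ end on the minus strand, so this window lies within the gene and not upstream of it. An exon of the antisense gene 6330403L08Rik overlaps the window. Pdgfc is on the plus strand of chromosome 3, and its window is chr3:81036166-81036415.
Pdgfra: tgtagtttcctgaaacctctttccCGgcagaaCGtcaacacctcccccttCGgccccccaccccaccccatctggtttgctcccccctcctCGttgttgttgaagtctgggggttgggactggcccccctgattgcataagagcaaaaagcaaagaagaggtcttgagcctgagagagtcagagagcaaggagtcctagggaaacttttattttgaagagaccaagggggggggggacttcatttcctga
Pdgfa: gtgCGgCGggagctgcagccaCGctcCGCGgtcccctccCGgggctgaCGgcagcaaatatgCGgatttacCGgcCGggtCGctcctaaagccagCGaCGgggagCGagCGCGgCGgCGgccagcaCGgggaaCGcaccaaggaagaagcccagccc
Pdgfc: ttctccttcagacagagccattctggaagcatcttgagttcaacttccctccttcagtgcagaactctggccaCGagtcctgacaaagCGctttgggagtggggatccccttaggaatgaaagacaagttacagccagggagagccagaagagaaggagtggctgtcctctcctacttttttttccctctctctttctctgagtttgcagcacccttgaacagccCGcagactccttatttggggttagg
The Pdgfra window had 4 CpGs and a GC content of 54.4%, and the Pdgfc window 3 CpGs and 50.8%. The whole 250-base window at this Pdgfa start had 28 CpGs and 72.4% GC, above 93.55% of the 32851 windows of the same length in the RefSeq table, and the window at the other Pdgfa start had 19 CpGs and 66.4% GC. The median window had 6 CpGs and 52.4% GC. The letters GATA, the core that GATA factors bind, were on neither strand of the Pdgfra window, nor of the Pdgfc window or the windows at both Pdgfa starts, whereas 53.62% of all windows held them on at least 1 strand. The letters ACAAT, the core that SOX factors bind, were absent from the Pdgfra and Pdgfc windows, present at 1 of the Pdgfa starts and found in 27.66% of all windows.

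The receptor set was Pdgfra alone. Pdgfra (ENSMUSG00000029231, chromosome 5, 75152292 to 75198215) had 27314 counts and was counted in 46 of the 48 cells. Pdgfrb (ENSMUSG00000024620, chromosome 18, 61045150 to 61085061), the second receptor, had 0 counts among the 189591447 of all cells. A count of 0 allows up to 3 counts, which corresponds to a mean of 0.00289 FPKM over the pooled cells, and 0 of 48 cells allows a share of up to 6.25% of cells with a count. Pdgfrb transcripts were thus not detectable at this depth.

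Pdgfra was higher in pPrE cells than in pEPI cells, and the difference was not of the same kind throughout. In the 25 pEPI cells Pdgfra ranged from 0 to 21.3 FPKM with a median of 4.93, and in the 23 pPrE cells from 9.20 to 40.8 FPKM with a median of 18.1. The branches overlapped: 8 pEPI cells were at or above the lowest pPrE cell, and 7 pPrE cells were above the highest pEPI cell. No pPrE cell was without the receptor, whereas pEPI cells ran from none to the middle of the pPrE range. The mean was 2.78-fold higher in pPrE cells, a log2 ratio of 1.47 with a counting interval of 1.43 to 1.51. When each pPrE cell was set against each pEPI cell, it was the higher of the pair in 84.7% of pairs.

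**Figure D1:**
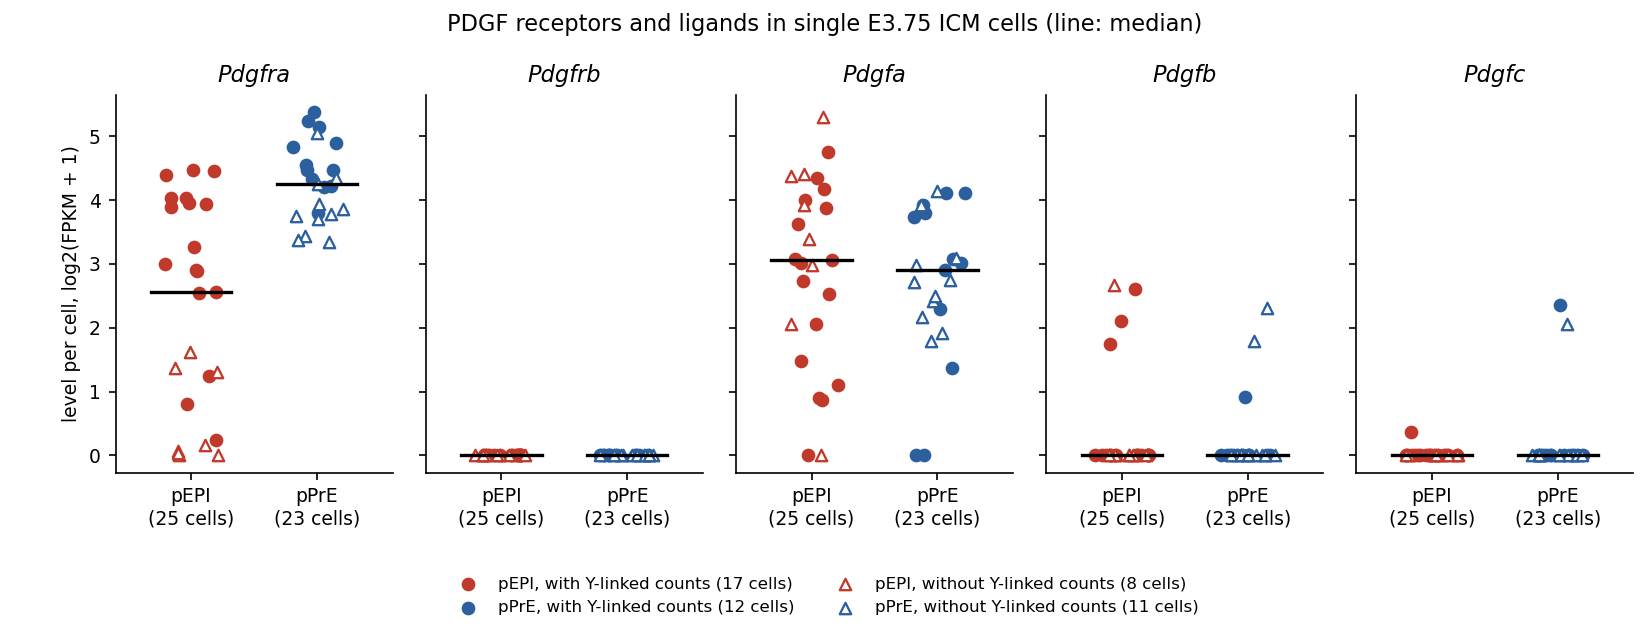
Level of each of the 5 genes in each cell as log2(FPKM + 1) on the vertical axis, with cells grouped by branch on the horizontal axis, filled circles for cells with Y-linked counts, open triangles for cells without, and a black line at the median. Pdgfra spans 0 to 21.3 FPKM in pEPI cells and 9.20 to 40.8 FPKM in pPrE cells, Pdgfrb is at 0 in every cell, and Pdgfb and Pdgfc are above 0 in 7 and 3 cells.

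The pEPI cells with little Pdgfra were mainly those without Y-linked counts. Pdgfra in the 8 pEPI cells without Y-linked counts was 0 FPKM in C8 and D4, 0.0208 in F4, 0.0525 in C4, 0.123 in F8, 1.48 in D6, 1.58 in C3 and 2.07 in C7. All 8 were below every pPrE cell. In the 17 pEPI cells with Y-linked counts Pdgfra ranged from 0.186 to 21.3 FPKM with a median of 8.61. Of these 17 cells 14 were above the highest pEPI cell without Y-linked counts, and the other 3 were A4 at 0.186 FPKM, A6 at 0.743 FPKM and A7 at 1.37 FPKM. The 8 pEPI cells within the pPrE range all had Y-linked counts. The same order was seen in pPrE cells with a smaller difference: the 12 with Y-linked counts ranged from 12.9 to 40.8 FPKM with a median of 21.8, and the 11 without ranged from 9.20 to 32.01 FPKM with a median of 12.7, so the kinds overlapped. The log2 ratio of pPrE to pEPI was 1.27 among cells with Y-linked counts and 4.47 among cells without. Since embryos are not labelled and the kinds follow runs of wells, the embryo, its sex and the run of wells cannot be told apart.

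Lineage factors also differed between these kinds. In pEPI cells the mean of Nanog, a transcription factor of the epiblast, was 226 FPKM with Y-linked counts and 504 FPKM without. Fgf4, the ligand that epiblast precursors secrete, averaged 16.6 FPKM in pEPI cells with Y-linked counts and 56.5 FPKM in those without. Gata6, an early factor of the primitive endoderm, averaged 11.98 and 4.56 FPKM in the same pEPI groups. The pEPI cells without Y-linked counts thus had the higher means of the epiblast genes and the lower means of Pdgfra and Gata6. In pPrE cells the factors did not all follow Pdgfra in this way. The mean of Pdgfra was 25.002 FPKM in pPrE cells with Y-linked counts and 14.8 FPKM in those without, whereas Gata6 averaged 20.6 and 28.5 FPKM, the endoderm factor Sox17 38.3 and 66.8 FPKM and Nanog 56.5 and 29.7 FPKM in the same order. The Nanog mean of pPrE cells with Y-linked counts rested mainly on A1 (308 FPKM), B8 (202 FPKM) and B3 (103 FPKM). The other cells of this group were at 26.2 FPKM or lower. Fgf4 averaged 1.30 FPKM in pPrE cells with Y-linked counts and 2.98 FPKM in those without, the same order as in pEPI cells. The part of the stage or state of single embryos in the Pdgfra values was not tested.

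Among the ligands, Pdgfa was the one present in most cells, and it did not follow the branches as the receptor did. Pdgfa (ENSMUSG00000025856, chromosome 5, 138976014 to 138997370) encodes the A chain, which signals through PDGFRA. It had 5585 counts and was counted in 44 cells. Pdgfa ranged from 0 to 38.4 FPKM with a median of 7.35 in pEPI cells and from 0 to 16.6 FPKM with a median of 6.51 in pPrE cells. The ranges overlapped fully, and no pPrE cell was above the highest pEPI cell. The mean was 10.2 ± 9.42 FPKM (SD between cells, n = 25) in pEPI cells and 7.50 ± 5.35 FPKM (SD between cells, n = 23) in pPrE cells, a log2 ratio of -0.44 with a counting interval of -0.52 to -0.36. The pPrE cell was higher in 43.7% of pairs. The difference of the means was smaller than either SD. Without the wells of letter C, which hold the pEPI cell C3 with the highest level, the log2 ratio was -0.11, and without letter B it was -0.62. Among cells with Y-linked counts it was -0.027, and among cells without it was -1.06.

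Among the 8 pEPI cells without Y-linked counts, those low in the receptor, Pdgfa was 38.4 FPKM in C3, 20.2 in D4, 19.8 in C4, 14.2 in D6, 9.44 in C8, 6.94 in F4, 3.16 in F8 and 0 in C7. Of these cells, all but C7 thus had the ligand transcript. The 17 pEPI cells with Y-linked counts ranged from 0 to 25.8 FPKM with a median of 7.04. In pPrE cells the ranges were 0 to 16.3 FPKM with Y-linked counts and 2.45 to 16.6 FPKM without. The 4 groups overlapped in Pdgfa.

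Of the members, Pdgfra and Pdgfa reached a mean of 1 FPKM, the minimum for a 2-fold call, and Pdgfra was past 2-fold. Over the 10880 genes at this minimum, 6.2% were at least 2-fold higher in pPrE cells, 9.03% at least 2-fold higher in pEPI cells and 15.2% either way. With 2 members at this minimum, nothing is read from their share. Pdgfrb, Pdgfb and Pdgfc did not pass it.

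Pdgfb and Pdgfc transcripts were confined to a few cells at this depth. Pdgfb (ENSMUSG00000000489, chromosome 15, 79995874 to 80014977) encodes the B chain, which binds both receptors. Its level was 5.34 FPKM in D4, 5.06 in B4, 3.29 in E2 and 2.34 in A3 among pEPI cells, and 3.98 in F5, 2.46 in F6 and 0.888 in E6 among pPrE cells. The other 41 cells had no count of Pdgfb. The sums were 254 counts in pEPI cells and 163 in pPrE cells, and F5 alone held 59.5% of the latter. The log2 ratio of the means, -1.01, fell to -4.03 without the wells of letter F and was -0.11 without those of letter D, so its size rested on single cells.

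Pdgfc (ENSMUSG00000028019, chromosome 3, 81036416 to 81214040) encodes the C chain, which is secreted in a latent form and cleaved before it activates PDGFRA. It was 4.11 FPKM in E8 and 3.15 FPKM in F5, both pPrE cells, and 0.287 FPKM in A7, a pEPI cell. These levels came from 80, 94 and 7 counts, and 45 cells had none. With counts in 2 pPrE cells and 1 pEPI cell, no level of the branch can be given beyond these values. Pdgfd, the ligand of PDGFRB that is no member of the set, had 3 counts in 1 cell.

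Receptor and ligand were compared cell by cell with a gene taken as detected at 10 CPM (counts scaled by the cell's total) or more. Pdgfra and Pdgfa were detected together in 30 of 48 cells (62.5%, exact binomial interval 47.4 to 76.0%). This share depended on the minimum: it was 83.3% of cells at 1 CPM and 10.4% at 50 CPM. The receptor without Pdgfa was found in 11 cells (22.9%, 12.03 to 37.3%), namely A1, A2, B7, C5, C7, D1, E2, E4, E5, E8 and F3. A minimum in CPM ignores gene length, and Pdgfra has 10024 exon bases against 3119 of Pdgfa. In FPKM the minimum was therefore stricter for the ligand, and most of these cells had some counts of Pdgfa. With both genes at 1 FPKM the receptor alone was found in 10.4% of cells, and with both at 1 count in 8.33%. Pdgfa without the receptor was found in 6 cells (12.5%, 4.73 to 25.2%), namely A4, C4, C8, D4, F4 and F8. A6 had neither. These intervals take every cell as its own draw, so the spread between embryos is not in them.

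All 6 cells with Pdgfa alone were pEPI cells, and 5 of them, all but A4, were without Y-linked counts. Among pEPI cells, 12 had both transcripts, 6 the receptor alone, 6 the ligand alone and 1 neither. Among pPrE cells, 18 had both and 5 the receptor alone, since the receptor was detected in all 23. Pdgfa itself was detected in 18 of 25 pEPI cells (72.0%, 50.6 to 87.9%) and 18 of 23 pPrE cells (78.3%, 56.3 to 92.5%), and these intervals overlapped widely.

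**Figure D2:**
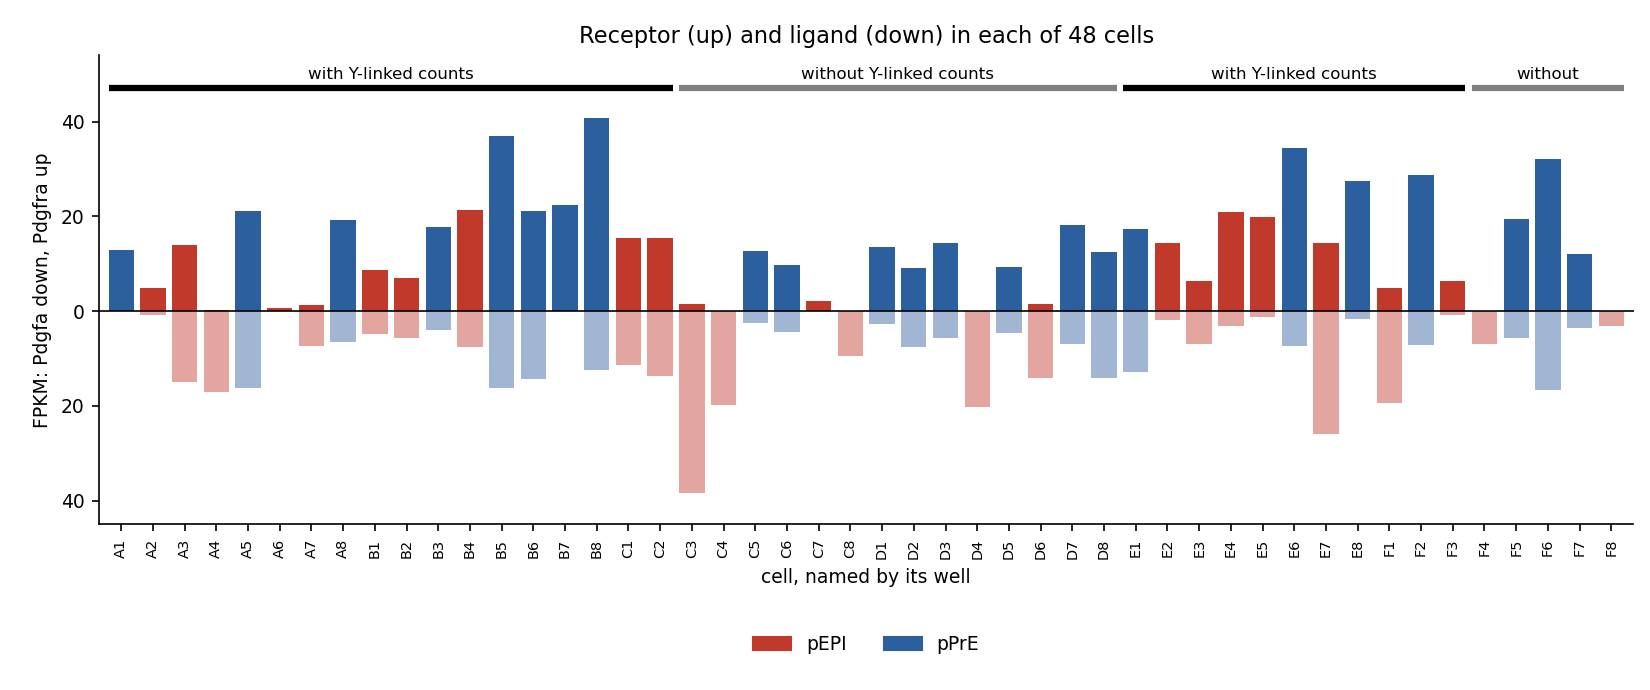
FPKM of Pdgfra (bars upward) and Pdgfa (paler bars downward) in each cell, with wells in order on the horizontal axis, red for pEPI and blue for pPrE cells, and bars above marking the runs of wells with (black) and without (grey) Y-linked counts. In the run C3 to D8 the pEPI cells have at most 2.07 FPKM of Pdgfra, and C3 has the highest Pdgfa level, 38.4 FPKM.

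The order of the levels within a cell differed in the same way. Pdgfra was above Pdgfa in FPKM in 34 of 48 cells. In pPrE cells this held for 22 of 23, and the exception was D8 with 12.4 FPKM of Pdgfra and 14.2 FPKM of Pdgfa. In pEPI cells it held for 12 of 25. Of the 8 pEPI cells without Y-linked counts it held for C7 only, in which Pdgfa was not counted.

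The rarer ligands were set against the receptor in the same way. At 10 CPM, Pdgfb was detected with Pdgfra in 4 cells, A3, B4, E2 and F5, and without it in D4, that is in 9.76% of cells with Pdgfra and 14.3% of cells without. Pdgfc was detected with Pdgfra in 2 cells, E8 and F5. F5, a pPrE cell, had all 3 ligands and the receptor. Of the 10 cells without any of the 3 ligands at this minimum, 9 had the receptor. Pdgfra itself was detected in 41 of all 48 cells.

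Levels of the receptor and of Pdgfa were set against each other across cells. Spearman's rho between Pdgfra and Pdgfa was -0.02 over all 48 cells, -0.17 over the 25 pEPI cells and 0.37 over the 23 pPrE cells. Within pEPI cells it was 0.06 with Y-linked counts (n = 17) and -0.20 without (n = 8). Within pPrE cells it was 0.33 with Y-linked counts (n = 12) and 0.24 without (n = 11). These values describe cells that share embryos and runs of wells, and their depth differs. The rho against the total count was 0.13 for Pdgfra and 0.17 for Pdgfa over all cells, but 0.57 for Pdgfa in pEPI cells with Y-linked counts (n = 17) and 0.48 for Pdgfra in pPrE cells with Y-linked counts (n = 12). The part of depth in these relations was not tested.

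Pdgfra had larger rho values with lineage markers than with Pdgfa over all cells. Its rho with Nanog was -0.73 over all cells, -0.77 among pEPI cells and -0.75 among the 17 pEPI cells with Y-linked counts. Among the 8 pEPI cells without Y-linked counts, in which Pdgfra was at most 2.07 FPKM, it was 0.08. Among the pPrE cells it was -0.27. With Fgf4 it was -0.73 over all cells, -0.81 among pEPI cells, -0.81 among pEPI cells with Y-linked counts and -0.29 among those without. In pPrE cells the rho with Fgf4 was -0.66 with Y-linked counts (n = 12) and 0.52 without (n = 11). With Gata6 it was 0.55 over all cells, 0.50 among pEPI cells and -0.16 among pPrE cells, of which those with Y-linked counts had 0.34 and those without -0.02. With Gata4, a later endoderm factor, it was 0.61 over all cells and 0.00 among pPrE cells. With Sox17 it was 0.48 over all cells, -0.39 among pPrE cells and -0.67 among pPrE cells without Y-linked counts. The relations to these factors thus differed in size and sign between the branches and between the kinds of cell, and these differences were not tested. The cell B4, of the pEPI branch, illustrates the upper end with 21.3 FPKM of Pdgfra, 100.03 FPKM of Nanog and 17.02 FPKM of Gata6. C8 illustrates the lower end with 0 FPKM of Pdgfra, 672 FPKM of Nanog and 0.130 FPKM of Gata6. Pdgfra also had a rho of 0.58 with the summed trophectoderm markers among pEPI cells, 0.37 among those with Y-linked counts and 0.48 among those without. Among pPrE cells it was -0.11. The largest pEPI means in this sum were those of Krt8 (40.2 FPKM) and Tead4 (17.2 FPKM), which were counted in most cells. The part of these transcripts in the Pdgfra values was not tested. Pdgfa had a rho of -0.06 with Nanog and -0.03 with Gata6 over all cells.

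**Figure D3:**
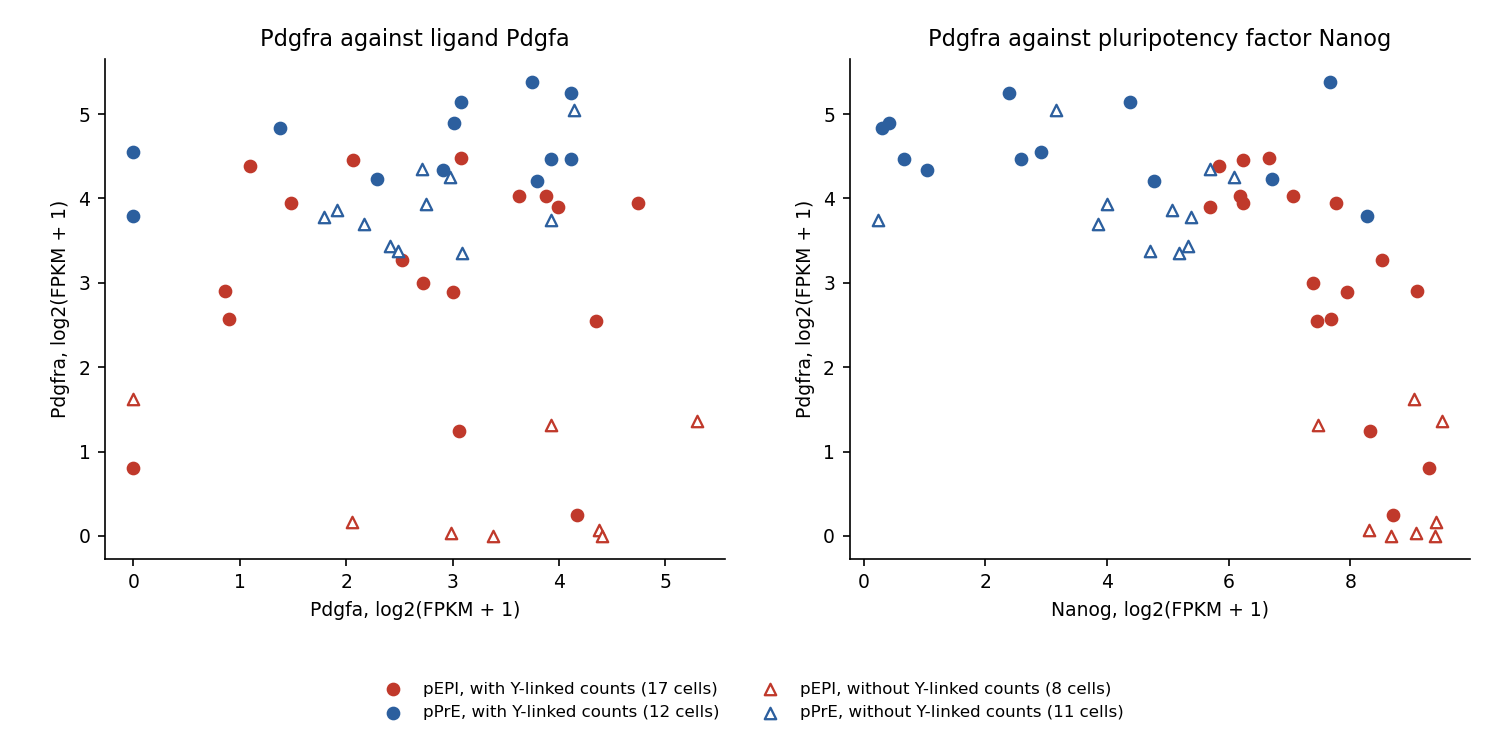
Pdgfra on the vertical axis against Pdgfa (left) and Nanog (right) on the horizontal axes, all as log2(FPKM + 1), with 1 point per cell, red for pEPI and blue for pPrE, filled circles with and open triangles without Y-linked counts. Points for Pdgfa spread over the panel (rho -0.02), while Pdgfra falls as Nanog rises (rho -0.73 over all cells, -0.77 among pEPI and -0.27 among pPrE cells).

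The genes whose level was most like that of Pdgfra were ranked by Spearman's rho over the 48 cells among 9080 other genes. The highest were Shisal2b (0.82), Cpn1 (0.76), which encodes the catalytic subunit of carboxypeptidase N, Raet1e (0.72), B4galt6 (0.71) and Lamb1 (0.70), a laminin chain of basement membranes. The lowest were Morc1 (-0.80), a germline repressor of transposons, Fgf4 (-0.73), Nanog (-0.73), Aqp3 (-0.72), a water and glycerol channel, and the pseudogene Gm10093 (-0.71). In all, 105 genes had a rho of at least 0.5 and 127 a rho of -0.5 or lower. Shisal2b stayed the highest with the branch means taken out (0.79) and with the means of the Y-linked kinds taken out as well (0.59), while Lamb1 went to 0.60 and 0.35. Shisal2b averaged 40.6 FPKM in pEPI cells and 88.2 FPKM in pPrE cells. With the branch means out, Wwtr1 (0.73), which encodes the Hippo cofactor TAZ, and the gap junction gene Gjb5 (0.73) came next, and these fell to 0.24 and 0.23 with the kind means taken out too.

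No gene was as close to Pdgfa. The highest rho values were those of Gdpgp1 (0.60), the interferon-induced membrane gene Ifitm3 (0.51), Mvk (0.45), which encodes a kinase of the mevalonate pathway, the pseudogene Rpl27-ps3 (0.45) and BC028528 (0.44). The lowest were those of Fxyd4 (-0.50), Tbpl1 (-0.47), the DNA ligase gene Lig1 (-0.46), Dcst2 (-0.45) and the membrane-bound matrix protease gene Mmp15 (-0.45). Counts of the pseudogenes named here and above are uncertain, since they can share reads with near-identical genes. In all, 2 genes had a rho of at least 0.5 and 1 a rho of -0.5 or lower, out of the same number of genes. The ligand had 5585 counts against 27314 of the receptor, so its levels carry more counting error.

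The rest of the pathway was looked up in a list of 62 genes by role, of which 36 reached a mean of 1 FPKM and 5 had no count. Of these 36 genes 3 were at least 2-fold higher in pPrE cells, 2 at least 2-fold higher in pEPI cells and 31 within 2-fold. That is 13.9% past 2-fold, near the 15.2% of all genes, and the median log2 ratio was 0.09 against 0.00 over all genes.

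Among genes that process or bind PDGF chains, Sparc, which encodes a matrix protein that binds PDGF-B, averaged 248 FPKM in pPrE cells and 78.2 FPKM in pEPI cells, a log2 ratio of 1.67, and the pPrE cell was higher in 98.1% of pairs. The proprotein convertases, a family that cleaves the A chain, were within 2-fold: Furin had a log2 ratio of 0.52, Pcsk6 of -0.27 and Pcsk7 of -0.48. Plat, which encodes the protease that activates the C chain, had 166 counts in 3 pEPI cells and 26 counts in 2 pPrE cells. Among relatives of PDGF, Vegfc was 2.58-fold higher in pEPI cells (3.13 against 1.21 FPKM), with counts in 12 of 25 pEPI and 10 of 23 pPrE cells. None of the 6 related receptors reached 1 FPKM. Kit, the stem cell factor receptor gene 377 kb from Pdgfra, had 272 counts in 6 pEPI cells and 11 counts in 1 pPrE cell.

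Of 15 adaptors and enzymes at the receptor that reached the minimum, 2 were past 2-fold (13.3%, near the 15.2% of all genes) and 13 within it, among them Grb2, which links receptors to RAS, with 14.4 FPKM in pEPI and 11.3 FPKM in pPrE cells, and Ptpn11, the phosphatase SHP2, with 2.996 and 2.777 FPKM. Rasa1, a brake on RAS that binds the receptor, was 2.09-fold higher in pPrE cells, and Nck2, an adaptor to the cytoskeleton, was 2.24-fold higher in pEPI cells. Of 8 downstream kinases, Mapk3 (ERK1) was 2.64-fold higher in pPrE cells, with 5.08 ± 5.13 FPKM (SD between cells, n = 23) against 1.93 ± 4.64 FPKM (SD between cells, n = 25), and it was counted in 16 of 23 and 9 of 25 cells. The 7 limiters of the signal at the minimum were within 2-fold, which is read against the 15.2% of all genes past it, among them the phosphatase gene Ptpn1 with a log2 ratio of 0.46, and Spry2, a feedback inhibitor of MAP kinase signalling, was at 232 FPKM in pEPI and 259 FPKM in pPrE cells.

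**Figure D4:**
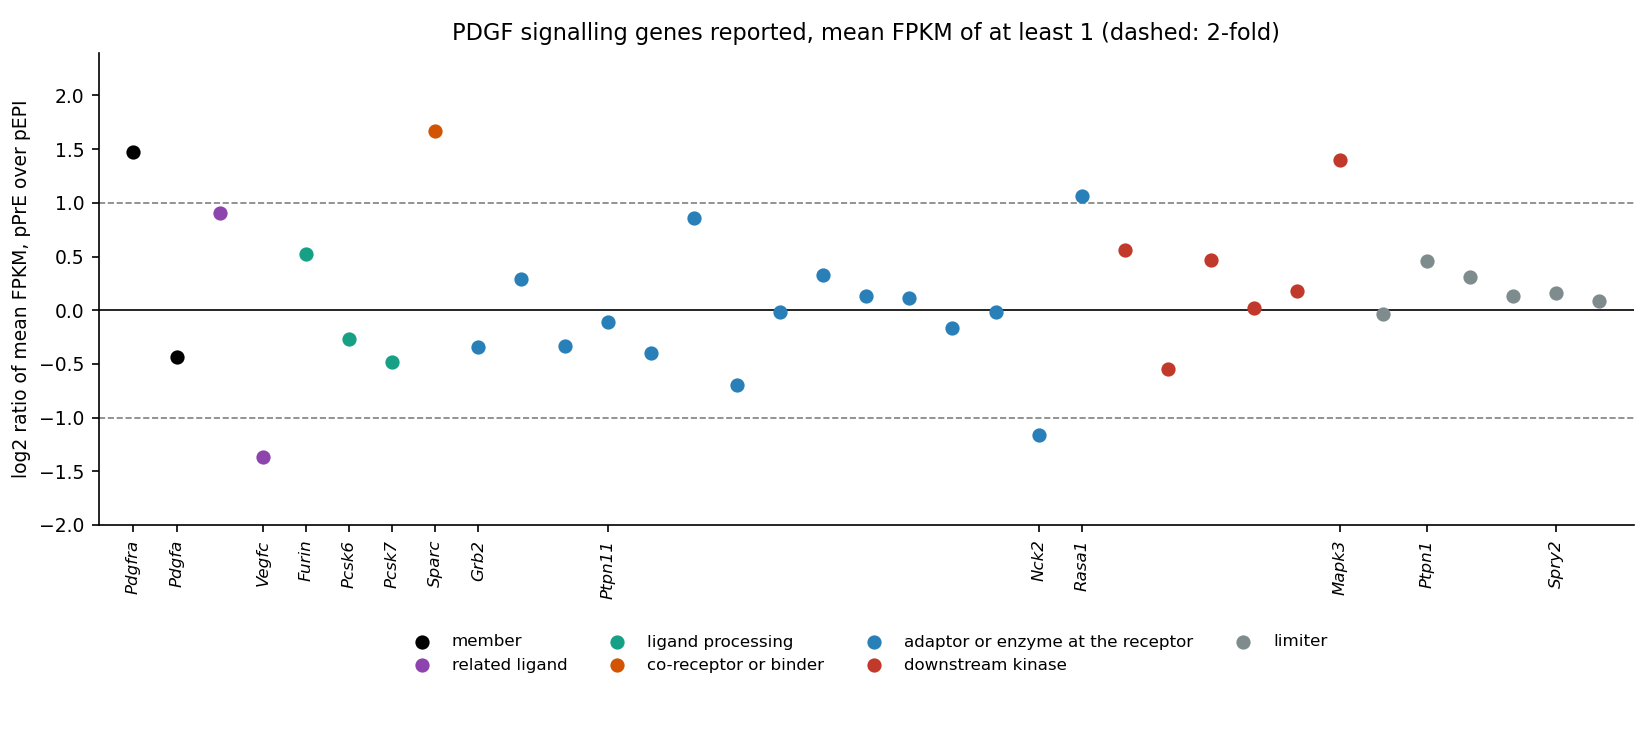
Log2 ratio of mean FPKM in pPrE over pEPI cells on the vertical axis for Pdgfra, Pdgfa and the pathway genes reported here with a mean of at least 1 FPKM, coloured by role and labelled on the horizontal axis where the text names them, with dashed lines at 2-fold. Sparc, Mapk3 and Rasa1 lie above the upper line with Pdgfra, and Vegfc and Nck2 lie below the lower line.

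Of the 4 protein-coding genes within 500 kb of Pdgfra only Chic2 reached 1 FPKM, and its log2 ratio was 0.22. Of 17 protein-coding genes around Pdgfa, 7 reached 1 FPKM and 0 were past 2-fold. With so few neighbours at the minimum and 15.2% of all genes past 2-fold, nothing is read from these counts. Antisense and overlapping genes at the Pdgfra locus had 58 counts (Gm42803) and 18 counts (Mir7025) against 27314 of Pdgfra. How reads shared by overlapping genes were counted is not given in the sources used here, so these counts do not measure mixing with Pdgfra.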

How the data were processed

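Single cells of E3.75 ICMs were sequenced by Smart-seq2. The deposited values are raw counts per gene, made by the authors with htseq-count on Ensembl 87 genes (mm10); the submitters' processing notes also name STAR, without a version. The authors' analyses left out libraries with fewer mapped reads than their minimum, with biased gene-body coverage or apart by PCA. The deposited counts hold 6 well letters with 8 wells each, and whether any library was left out of them is not given.

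Counts were divided by median-of-ratios size factors, scaled to the geometric mean total, and by exon length (GENCODE M21) to give FPKM. No test was made, since the cells are 1 sample: a gene at a mean of at least 1 FPKM was called past 2-fold by its ratio of means. Detection was 10 CPM, and log2 values used a pseudocount of 1. Intervals are exact (binomial, Clopper-Pearson; Poisson for counts) at 95%, and that of a log2 ratio of means is approximate: it has the relative width found for the ratio of the 2 summed counts. These intervals cover counting error only, and reads from 1 molecule are not told apart. Spearman's rho was ranked over genes counted in at least 24 cells, naming the 5 highest and the 5 lowest for Pdgfra and for Pdgfa. Upstream windows came from RefSeq GRCm38.

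The members, the pathway and marker lists and the rules were chosen with earlier results of these data known, and 24 alternatives were listed with them. A ranking with the branch and Y-linked kind means taken out was added after the data had been seen. Steps were tested on simulated data with Python 3.11.15, numpy 2.4.6, pandas 2.3.3 and scipy 1.17.1. A few genes of the pathway list are counted with it but are not reported here by name.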

Additional observations from a re-analysis of the deposited data

How the results depend on the processing

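Direction was kept in all 49 alternative values of the branch ratios, but sizes moved. Those of Pdgfc are among the 49 and rest on 7 counts in 1 pEPI cell, A7, so nothing is read from their direction. The alternatives reuse the same cells, and the values of Pdgfa and Pdgfb came as near to 0 as -0.027 and -0.11. The kept direction is thus no further support for these 2 genes. For Pdgfra (log2 ratio 1.47) the value was 1.58 with cells grouped by PC1, which moved 1 cell, E5, 1.27 in cells with and 4.47 in cells without Y-linked counts, and 1.53 without the highest cell of each branch. Leaving out the wells of each letter in turn gave 1.27 to 1.87. For Pdgfa the same settings gave -0.54, -0.027, -1.06 and -0.34, and leaving out letters gave -0.62 to -0.11. Pdgfb gave -0.60 with summed counts, -3.09 and -0.19 in cells with and without Y-linked counts, and -1.55 without the highest cells; leaving out letters gave -4.03 to -0.11. Pdgfc gave 3.46 to 5.10 over 5 letters. It gave no value without letter A, in cells without Y-linked counts or without the highest cell of each branch.

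The detection minimum set the shares of cells. Both Pdgfra and Pdgfa were found in 83.3% of cells at 1 CPM, 87.5% at 1 count and 10.4% at 50 CPM (62.5% at 10 CPM). Pdgfra alone was found in 8.33% at 1 CPM and at 1 count, 64.6% at 50 CPM and 10.4% at 1 FPKM. Pdgfa alone was found in 4.17% at 1 count, and in 3.45% of cells with and 26.3% of cells without Y-linked counts. Pdgfra with Pdgfb, and with Pdgfc, was found in 0% at 50 CPM. Leaving out letters gave 57.5% to 65.0% for both, 17.5% to 25% for Pdgfra alone, 10% to 15% for Pdgfa alone, 7.5% to 10% for Pdgfra with Pdgfb and 2.5% to 5.0% with Pdgfc.

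Of the pathway list, 6 genes were past 2-fold in pPrE and 7 in pEPI cells without a filter (27.3% of all genes either way), 1 and 1 at a mean of 5 FPKM (7.99% of all genes), and 5 and 3 at 1.5-fold (28.7% of all genes). With mean log2 differences 2 and 1 were past 2-fold (6.38% of all genes), and by PC1 3 and 1 (15.3% of all genes). Of the 10 genes ranked for Pdgfra, 1 was shared with branch means taken out, 5 by Pearson's r and 3 with kind means taken out as well; for Pdgfa 5 were shared by Pearson's r and 3 with both means taken out. The cause was not tested. No paired analysis was possible because the labels give 1 group. Depth limits the values of Pdgfrb, Pdgfb and Pdgfc, and the unlabelled embryos limit every comparison.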
